A study of Mus musculus with 2 samples.

Results

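The heterotrimeric G protein subunit genes and the genes for regulators of G protein signalling (RGS) were examined for their regional patterns in 2 coronal sections of mouse brain at the level of the dorsal hippocampus. Members were the rows of the gene table whose symbol began with Gna, Gnb, Gng or Rgs followed by a subunit letter or number, leaving out Gnas, Rgs2, Rgs9 and Rgs14. The rule took 51 of 32285 genes. Of these, 50 encode proteins, and the other, Gnasas1, is an antisense RNA with 1 unique molecular identifier (UMI, a count of captured RNA molecules) in each section. The 50 comprised 15 alpha, 5 beta, 12 gamma and 18 RGS genes. Patterns were compared for the 38 members with at least 200 UMIs in each section, among 10544 genes of the whole table that passed the same minimum.

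Each section came from 1 male mouse of 3 to 4 months, of the line ArcCreERT2::eYFPflx on a C57BL/6 background, in which Cre is driven from the promoter of the activity-dependent gene Arc. Both mice carried these alleles. The mouse labelled trained had learned active place avoidance, in which a zone of a rotating arena gives a mild foot shock, and the mouse labelled untrained had been in the arena with no active shock. Brains were collected following a retention test of that memory. Visium arrays were used, on which each spot captures RNA from a small patch of a fresh frozen section and can hold several cells. With 1 section per group (n = 1 and n = 1), no difference had a replicate check and no test was made. All intervals are 95% intervals for counting error only. Whether the deposited labels match the animals of the study's text was not tested. The sections are called trained and untrained by these labels, and pairs of values give the trained section before the untrained section.

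A heterotrimeric G protein sits on the inner face of the plasma membrane and consists of an alpha subunit, which binds guanine nucleotides, and a tight pair of a beta and a gamma subunit. An activated receptor makes the alpha subunit exchange GDP for GTP, after which alpha and the beta-gamma pair act separately on enzymes and channels. RGS proteins speed up GTP hydrolysis by alpha subunits and so end the signal. Neurons use these proteins to read out dopamine, glutamate, acetylcholine, opioids and other transmitters.

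The trained section held 4152 spots and 29515831 UMIs, with a median of 5950.5 UMIs per spot. The untrained section held 3738 spots and 59029131 UMIs, with a median of 13766.5. Spots of both sections were clustered together without any member, and clusters were named from marker genes, which gave 14 regions with at least 30 spots in each section. Of 3958 and 3624 clustered spots, 3900 and 3303 lay in these regions. The remaining spots, such as the 2 and 178 of cluster 17, stayed in the values for all other spots and for the whole section. Those values thus cover partly different tissue in the sections. Regions held between 58 and 714 spots in the trained section and between 53 and 651 in the other. No regional marker list had a marker at 0 in the region it named. Some regions were unequally marked in the sections. The hypothalamic list summed to 4701 and 1087 CPM (counts scaled to a library total of 1e+06 UMIs) in the hypothalamus and the GABAergic list to 6747 and 3083 CPM in the GABAergic nuclei. The striatum was weakly marked in the untrained section. Its 7 markers summed to 1976 CPM over 241 spots of the trained section and to 362 CPM over 53 spots of the untrained section, against at most 147 and 134 CPM in any other region. In the same spots the 6 choroid plexus markers summed to 14968 and 46834 CPM and the 8 meningeal markers to 105 and 345 CPM, so the region named striatum held markers of other tissue in both sections. The habenula also held choroid plexus markers, at 14383 and 8368 CPM, and the other regions held 305 to 2319 CPM in the trained section and 1880 to 6236 CPM in the untrained section. The other 3 regions had no name and are given by number and leading genes: cluster 3 (Dkkl1, Fezf2, Hs3st2, Myl4), cluster 11 (Ddn, Sowaha, Hopx, Camk2a) and cluster 14 (Cabp7, Klk8, Neurod6, Homer3). Cluster 11 was shallow, with medians of 1921.5 and 2057.5 UMIs per spot. A region with a higher level may hold more cells of a type or more RNA per cell, and these cannot be told apart in spots.

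Members together held 116773 and 228259 UMIs, 0.396% and 0.387% of the trained and untrained sections. Gamma genes took 39.2% and 40.04% of these UMIs, beta genes 21.9% and 23.3%, alpha genes 21.6% and 20.7%, and RGS genes 17.4% and 15.9%. The 12 protein-coding members under the minimum were close to undetected. Gnat3, Gngt1 and Rgs21 had 0 UMIs in both sections. Counts in the trained section and the untrained section were 2 and 9 for Gnat1, 1 and 12 for Gnat2, 9 and 16 for Gna14, 39 and 68 for Gna15, and 27 and 26 for Gnb3. They were 8 and 9 for Rgs1, 13 and 17 for Rgs13, 2 and 4 for Rgs18, and 4 and 10 for Rgs22. Gnat1, Gnat2, Gnat3, Gngt1 and Gnb3 belong to the transducins and gustducin of photoreceptors and taste cells.

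How far the regional patterns of members were shared by the sections was asked first. The region with the highest CPM was the same in both sections for 24 of the 38 members, or 63.2%, beside 48.9% of all genes tested and 47.0% of genes that had no part in the clustering. For 10 of the 24 (Gna12, Gng8, Gng11, Gng12, Rgs3, Rgs4, Rgs6, Rgs7, Rgs10 and Rgs16) the lead over the next region exceeded counting error in both sections. That call moves with depth and was not counted over all genes, so whether 10 is many cannot be told. The same region stood at least 2-fold above all other spots in both sections for 16 members, or 42.1%, beside 20.1% of all genes tested and 16.4% of genes that had no part in the clustering. After thinning each spot to 1000 UMIs that count was 13 of 38, beside 32.0% of all genes, and 11 of the 16 were kept. Pearson's r between sections across the 14 regions, on log2 CPM, had a median of 0.88 over members (quartiles 0.757 and 0.909), against 0.706 over all genes. After thinning each spot to 1000 UMIs the median r was 0.489, against 0.266 over all genes, and 13 members had the same leading region, beside 23.9% of all genes. Spearman's rank correlation had medians of 0.848 and 0.666. The regions behind each r came from 1 section each and shared its library, so these values describe 2 sections. Within a section, between its left and its right side, the median r over members was 0.778 in the trained section and 0.829 in the untrained section, against 0.578 and 0.576 over all genes. Agreement also moved with depth. The 27 members with at least 1000 UMIs in each section had a median r of 0.887 and the other 11 had 0.701.

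By class, regional marking was most frequent among gamma and RGS genes, in classes of 4 to 13 genes and with no test of the difference. Over all genes tested, 48.9% had the same leading region and 20.1% a shared 2-fold region, and alpha genes lay near these shares. Of 10 alpha genes tested, 5 had the same leading region and 2 (Gna12, Gnal) a shared 2-fold region. Of 4 beta genes, 2 had the same leading region and 0 a shared 2-fold region, though Gnb4 gained such a region under some other settings. These were both other clusterings, thinning and the left side. Of 11 gamma genes, 7 had the same leading region and 7 (Gng2, Gng4, Gng7, Gng8, Gng10, Gng11, Gng12) a shared 2-fold region. Of 13 RGS genes, 10 had the same leading region and 7 (Rgs3, Rgs4, Rgs5, Rgs6, Rgs8, Rgs10, Rgs16) a shared 2-fold region. The span from the lowest to the highest region, in log2 CPM, had medians of 1.73 and 1.33 over alpha, 1.59 and 1.03 over beta, 2.57 and 2.11 over gamma and 2.56 and 2.15 over RGS genes in the trained and untrained sections, against 1.67 and 1.37 over all genes. The lowest of the 16 members past 2-fold were Gng10 and Gng7, both at 1.03 in the section where they were lower, and Gng2 at 1.04. Just outside lay Gnb4 in the habenula at 0.96, then Rgs11 in deep neocortex and Gngt2 in white matter, both at 0.89.

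**Figure D1:**
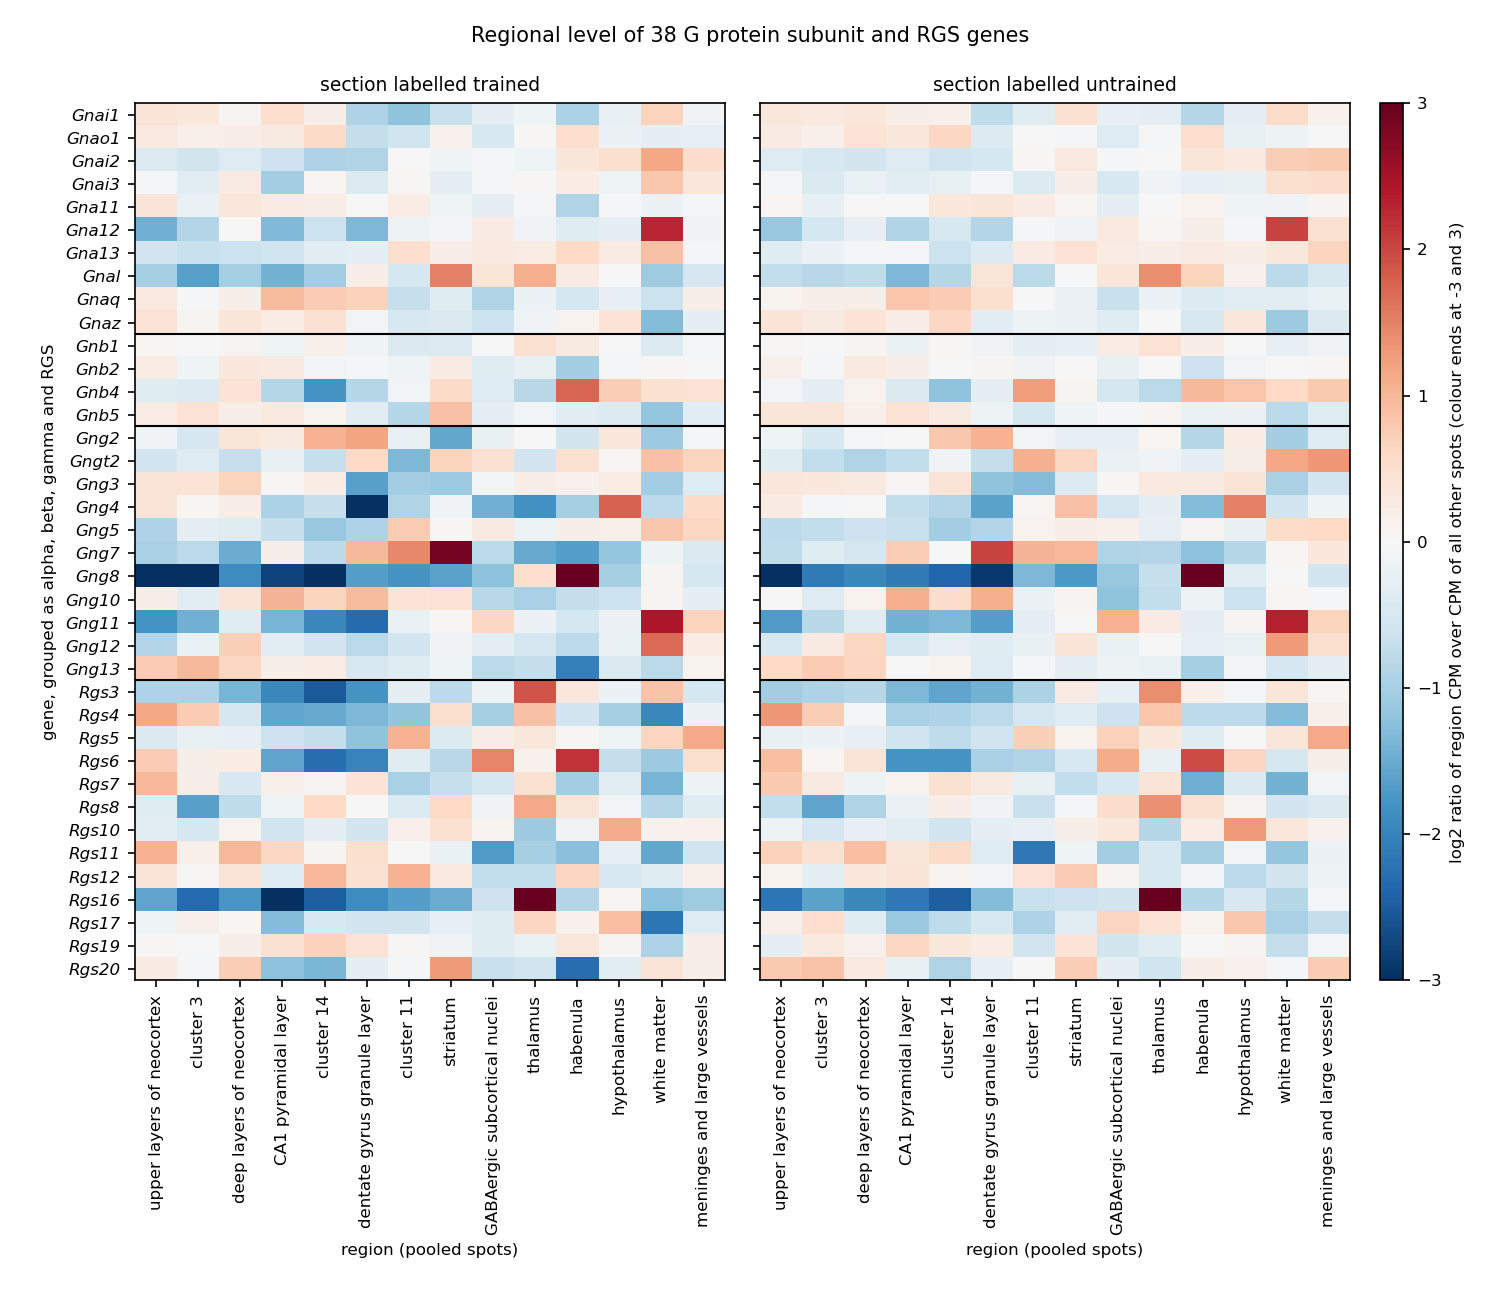
Heatmap of the log2 ratio of each region over all other spots for the 38 tested members (rows, by class) in the 14 regions (columns), with 1 panel per section. Gng8 in the habenula is the strongest cell of both panels at 6.06 and 5.59, and Gng7 and Gnal in the striatum are higher in the trained section.

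Among the alpha members, Gnao1, which encodes the alpha subunit Go of most brain G protein, had the most UMIs. Gnas, which the rule leaves out, had more, at 42225 and 87167. The level of Gnao1 was 255 CPM (7522 UMIs) in the trained section and 200 CPM (11819 UMIs) in the untrained section. Cluster 14 led at 372 and 299 CPM, closely followed by the habenula at 361 and 279 CPM, and these neighbours did not differ beyond counting error in either section. The granule layer of the dentate gyrus (DG) was lowest at 157 and 153 CPM. Gnao1 was thus present throughout, with a narrow span. Gnai2, an inhibitory alpha subunit, had 130 and 136 CPM over the sections. Its level was 264 and 219 CPM in white matter and 185 and 227 CPM in meninges and large vessels, so the leading region was white matter in the trained section and meninges in the untrained section. In the untrained section these regions did not differ beyond counting error.

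Gna12, the alpha subunit of G12, was a white matter gene in both sections. White matter held 282 CPM (261 to 305, 631 UMIs) in the trained section and 278 CPM (261 to 296, 991 UMIs) in the untrained section, against 58.3 and 68.1 CPM in all other spots. The log2 ratios over other spots were 2.28 (2.14 to 2.41) and 2.03 (1.93 to 2.13). No other region came near, the next being the GABAergic nuclei at 88.4 CPM in the trained section and the meninges at 109 CPM in the untrained section. Lowest were the upper layers of neocortex at 29.8 and 38.8 CPM. The ratio of the sections within white matter was 0.02 (-0.12 to 0.17) on the log2 scale.

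Gnal, the alpha subunit Golf that couples dopamine and adenosine receptors to adenylyl cyclase in the striatum, had a shared level in thalamus and an unshared one in striatum. Thalamic spots held 163 CPM (151 to 175, 708 UMIs) and 161 CPM (153 to 169, 1632 UMIs), with log2 ratios over other spots of 1.10 and 1.39. Striatal spots held 221 CPM (202 to 241, 522 UMIs) in the trained section and 77.4 CPM (57.5 to 102, 50 UMIs) in the untrained section. The log2 ratio of striatum over other spots was 1.51 in the first section and -0.01 in the second. Between sections Gnal in striatum stood at 1.5 (1.09 to 1.96) on the log2 scale, and in thalamus at 0.02 (-0.11 to 0.15). The striatal marker list moved the same way, at 1976 and 362 CPM, and the choroid plexus list the other way, at 14968 and 46834 CPM, and their part in the difference was not tested. The lowest levels of Gnal were 30.6 CPM in cluster 3 in the trained section and 31.6 CPM in CA1 in the untrained section.

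Beta subunits had the narrowest span as a class, with Gnb4 as the exception. Gnb1, the most sampled of them, had 474 CPM (13976 UMIs) and 489 CPM (28845 UMIs). Thalamus led in both sections at 617 and 626 CPM, a log2 ratio over other spots of 0.46 and 0.44, and cluster 11 was lowest at 348 and 408 CPM. In the trained section the lead of thalamus over the habenula lay within counting error (1.08-fold, 0.947 to 1.24). Gnb2 had 272 and 303 CPM, with deep layers of neocortex leading at 330 and 365 CPM and the habenula lowest at 135 and 198 CPM. The lead of Gnb2 over CA1 lay within counting error in both sections. Between sections Gnb2 had a Pearson's r of 0.94 and a Spearman correlation of 0.78, above and below the respective members' medians. Gnb5, the atypical beta subunit that binds RGS proteins of the R7 family, led in striatum at 177 CPM in the trained section and in CA1 at 128 CPM in the untrained section. In striatum of the untrained section Gnb5 stood at 88.2 CPM.

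Gamma subunits held the most regional member of all. Gng8 encodes a gamma subunit best known from vomeronasal sensory neurons and the medial habenula, the small epithalamic nucleus that sends cholinergic and peptidergic fibres to the interpeduncular nucleus. Habenular spots held 739 CPM (658 to 826, 307 UMIs) in the trained section and 604 CPM (566 to 644, 926 UMIs) in the untrained section. All other spots together held 11.1 and 12.5 CPM. The level was therefore higher by a log2 ratio of 6.06 (5.83 to 6.29) and 5.59 (5.45 to 5.74). The next region was thalamus at 28.3 CPM in the trained section and white matter at 27.8 CPM in the untrained section, and upper neocortex was lowest at 1.2 and 3.51 CPM. Habenular markers summed to 3098 and 3101 CPM in the habenula. Other lists differed there, with choroid plexus markers at 14383 and 8368 CPM and thalamic markers at 527 and 405 CPM, and their part in the levels of Gng8 was not tested. Within the habenula Gng8 was higher in the trained section by 0.29 (0.10 to 0.48) on the log2 scale.

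Gng8 also fell off over short distances. Spots 1 step from the habenula, a step being the spacing of neighbouring spots, held 136 and 63.7 CPM, and spots 2 steps away held 43.0 and 31.7 CPM. At 3 to 5 steps the levels were 13.9 and 20.7 CPM, and farther away 9.31 and 10.4 CPM. At least 1 UMI of Gng8 was found in 82.8% and 87.1% of habenular spots, at median depths of 6783 and 17144 UMIs. More than 5 steps away the shares were 6.16% and 14.1%, at median depths of 6255 and 13551 UMIs. The decline was steep in both sections, and the level far away did not reach 0.

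**Figure D2:**
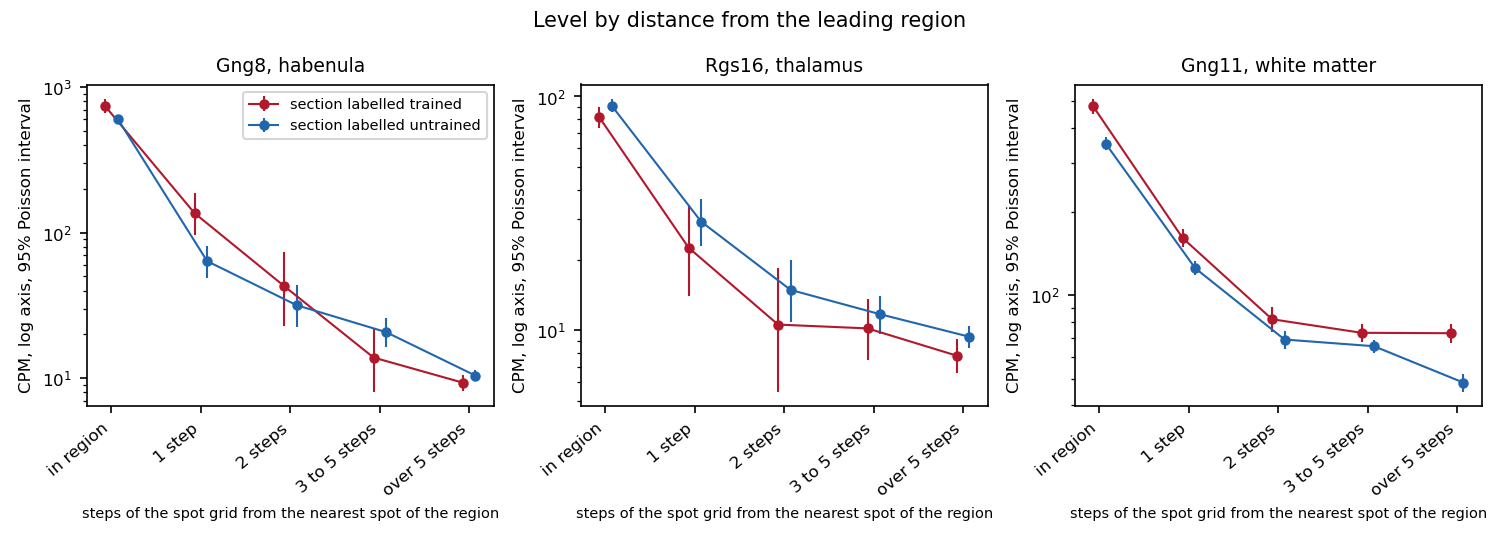
Level in CPM on a log axis against distance in spots from the named region, for Gng8 around the habenula, Rgs16 around the thalamus and Gng11 around white matter, with 1 line per section and 95% counting intervals. All 3 genes drop within 2 steps in both sections, and Gng8 drops most.

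The gene Gng8 lies on chromosome 7 from 16891786 to 16895436 on the plus strand and has 4 exons. Its promoter, from RefSeq on GRCm38.p6, is shown because Gng8 has the sharpest pattern of the family. The window chr7:16891536-16891835, plus strand, covers 250 bases before and 50 after the start, and capitals mark the GC box CCGCCC.
Gng8: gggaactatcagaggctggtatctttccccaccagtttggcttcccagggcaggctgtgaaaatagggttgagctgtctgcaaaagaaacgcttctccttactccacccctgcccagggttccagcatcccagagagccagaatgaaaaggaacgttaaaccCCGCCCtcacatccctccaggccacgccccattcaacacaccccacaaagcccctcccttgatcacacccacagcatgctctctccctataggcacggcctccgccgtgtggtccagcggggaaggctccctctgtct
Promoters of 14 of the 16 members with a shared 2-fold region were at hand, 20 windows in all. A GC box (GGGCGG or CCGCCC, both strands) occurred in 9 of these 20 windows, in 9 of the 14 genes. Over all 32851 promoters 35.7% held one, and 57.5% of the 40 windows of tested members did. A TATA box spelled TATAAA occurred in 3 windows, of Rgs3 and Rgs4, against 13.6% of all promoters. The cAMP response element TGACGTCA occurred in 0 of the 20, against 1.79%, the letters CTTTGA in those of Gng7 and Rgs5, against 16.0%, and the E box CACGTG in that of Gng7, against 7.15%. A match describes the letters of the window only.

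The other gamma genes with a shared region divided into white matter, DG, CA1, hypothalamus and, for Gng7, cluster 11. Gng11, a widely expressed gamma subunit abundant in endothelial and haematopoietic cells, held 479 CPM (451 to 509, 1071 UMIs) and 352 CPM (332 to 372, 1253 UMIs) in white matter. The log2 ratios over all other spots were 2.44 and 2.31. Meninges followed at 183 CPM in the trained section and GABAergic nuclei at 176 CPM in the untrained section, and the DG was lowest at 24.3 and 29 CPM. Its r between sections of 0.98 was the highest of the family. Gng11 fell from white matter to 161 and 125 CPM at 1 step and to 81.8 and 69.2 CPM at 2 steps. Across the 14 regions Gng11 followed the summed microglial markers with an r of 0.89 and 0.72 and the endothelial markers with 0.79 and 0.76. The astrocyte list, at 0.61 and 0.70, and the pericyte and smooth muscle list, at 0.71 and 0.56, also followed, so the match was not particular to microglia. The microglial list summed to 594 and 512 CPM in white matter, against 135 to 389 CPM and 158 to 427 CPM in the other regions. The white matter list summed to 39588 and 34192 CPM there, against at most 9252 and 10906 CPM in any other region. The part of these lists in the level of Gng11 was not tested.

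Gng12, a widely expressed gamma subunit, held 121 CPM (107 to 137, 271 UMIs) and 91.5 CPM (81.8 to 102, 326 UMIs) in white matter, a log2 ratio over other spots of 1.71 and 1.27. Deep neocortex came next at 68.5 and 62.3 CPM, beyond counting error in both sections. Gng2, a common partner of beta subunits in neurons, held 305 CPM (277 to 336, 415 UMIs) and 283 CPM (267 to 300, 1104 UMIs) in the DG, at log2 ratios of 1.19 and 1.04. The ratio in the untrained section fell to 0.50 after thinning each spot to 1000 UMIs, and an exon of Gm48283 on the opposite strand overlaps the end of Gng2. Cluster 14 was close behind at 279 and 246 CPM, and its difference from the DG lay within counting error in the trained section. Gng2 in striatum was 51.2 and 124 CPM, a log2 ratio of the sections of -1.28 (-1.69 to -0.85).

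Gng10 held 163 CPM (143 to 186, 225 UMIs) and 156 CPM (143 to 170, 519 UMIs) in CA1, at log2 ratios over other spots of 1.03 and 1.10. The DG reached 155 and 153 CPM, so CA1 and DG did not differ beyond counting error. The ratio for CA1 fell under 2-fold in both sections at the coarser clustering (0.96 and 0.97) and with equal weight for each spot (0.82 and 0.94). Gng10 shares exon sequence on the same strand with the gene model Gm20503, which leaves its counts uncertain. Gng4 held 53.8 CPM (47.2 to 61.2, 235 UMIs) and 45.7 CPM (41 to 50.9, 342 UMIs) in the hypothalamus, at 1.78 and 1.51. In the untrained section its lead over striatum, at 35.6 CPM, lay within counting error (1.28-fold, 0.842 to 2.05). Gng4 was lowest in the DG at 1.47 and 6.67 CPM. In thalamus Gng4 was 6.67 CPM (29 UMIs) and 16.8 CPM (171 UMIs), a log2 ratio of the sections of -1.32 (-1.96 to -0.76).

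Gng7, the gamma subunit that pairs with Golf in striatal neurons, had different leading regions in the sections. Striatum held 237 CPM (218 to 257, 560 UMIs) in the trained section and 66.6 CPM (48.2 to 89.7, 43 UMIs) in the untrained section. The DG held 91.9 CPM (76.5 to 110, 125 UMIs) and 116 CPM (105 to 127, 451 UMIs), and led in the untrained section. Cluster 11 was past 2-fold in both sections, at 130 CPM (51 UMIs) and 67.9 CPM (28 UMIs), with log2 ratios over other spots of 1.45 (1.01 to 1.84) and 1.03 (0.41 to 1.54). That call was lost on the right side, at 0.50 and 0.21, and in the untrained section after thinning, at 0.59. Striatum and DG each missed the threshold in a single section by a small margin, striatum at 2.86 and 0.997 and the DG at 0.98 and 2.03. The same 3 regions were highest in both sections, in different order. Between sections Gng7 in striatum differed by 1.82 (1.38 to 2.31) on the log2 scale, beside the fall in striatal markers given above.

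Gng3 and Gng13 had the most UMIs of the gamma genes, and their high levels included neocortex. Gng3, a neuronal gamma subunit, had 529 CPM (15610 UMIs) and 661 CPM (38990 UMIs). Deep neocortex led at 804 CPM in the trained section and cluster 14 at 850 CPM in the untrained section, while the DG stood at 176 and 296 CPM. In the untrained section hypothalamus, at 837 CPM, stood above upper neocortex, at 815 CPM. The lead of cluster 14 over hypothalamus there lay within counting error (1.02-fold, 0.971 to 1.06). Gng13, which serves bitter taste and retinal signalling as well as the brain, had 347 and 262 CPM and led in cluster 3 at 622 and 418 CPM. An exon of Chtf18 on the opposite strand overlaps its end. The habenula was its lowest region in both sections at 84.2 and 132 CPM, the reverse of Gng8. Gng5 had its highest levels in cluster 11 at 310 CPM and in meninges at 272 CPM, and a near-identical transcript makes its counts uncertain.

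**Figure D3:**
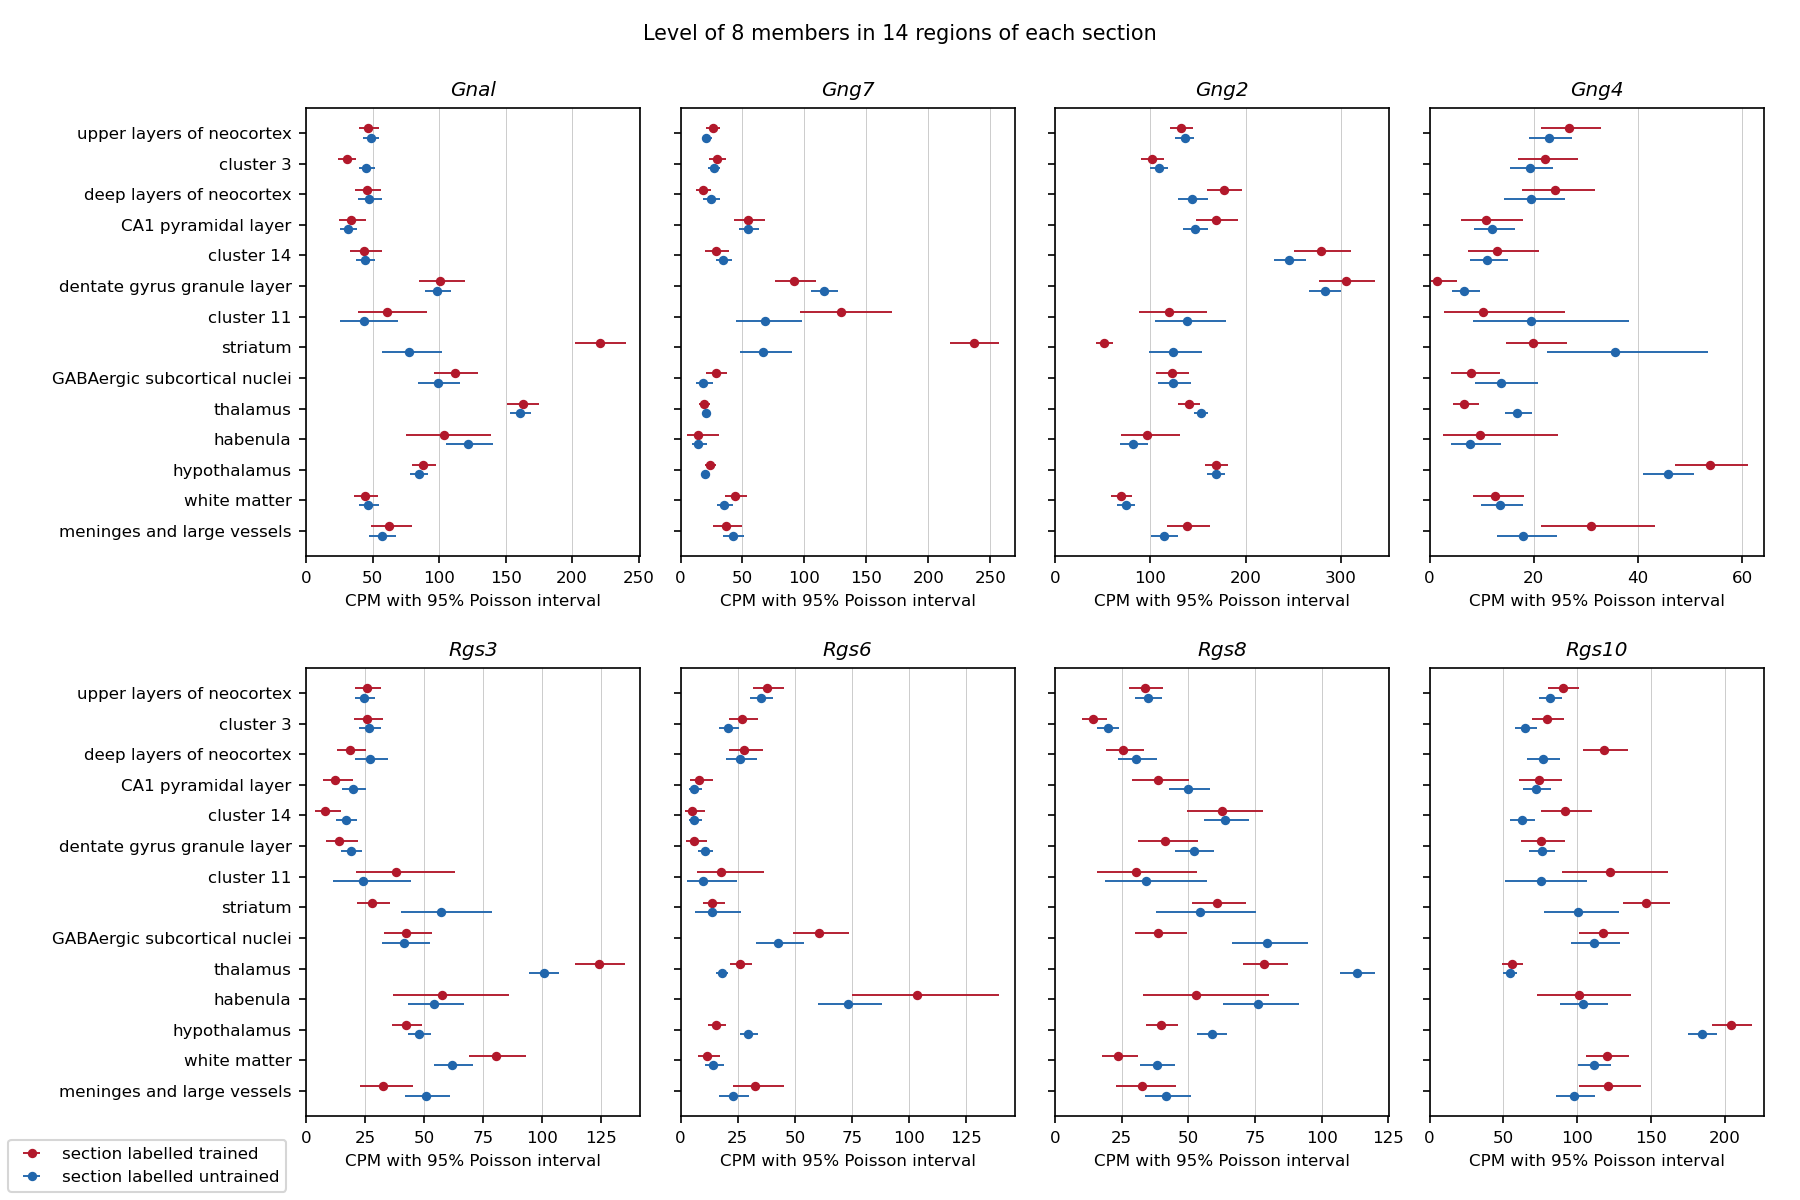
Level in CPM with 95% counting intervals in each of the 14 regions for Gnal, Gng7, Gng2, Gng4, Rgs3, Rgs6, Rgs8 and Rgs10, with both sections side by side. Striatal levels of Gnal and Gng7 are far apart between the sections, while thalamic Gnal lies at 163 and 161 CPM.

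Of the 7 RGS genes with a shared 2-fold region, 3 marked the thalamus. Rgs16, a small RGS protein acting on Gi and Gq and known for rhythmic expression in the suprachiasmatic nucleus, held 81.6 CPM (73.4 to 90.6, 355 UMIs) and 91.3 CPM (85.6 to 97.4, 927 UMIs) in thalamus. All other spots held 8.91 and 11.2 CPM, so the log2 ratios were 3.20 (2.95 to 3.44) and 3.03 (2.87 to 3.18). The next region was hypothalamus at 20.2 CPM in the trained section and meninges at 23.7 CPM in the untrained section. Thalamic levels of the sections did not differ beyond counting error, at -0.16 (-0.34 to 0.02). Spots 1 step outside thalamus held 22.6 and 29.2 CPM and those 2 steps outside 10.6 and 14.9 CPM. Thalamus consisted of clusters 0 and 2, and Rgs16 stood at 83.5 and 119 CPM in cluster 0 and at 80.1 and 59.7 CPM in cluster 2, so it was even in one section and uneven in the other.

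Rgs16 lies on chromosome 1 from 153740349 to 153745468 on the plus strand, with 5 exons, and an exon of Gm28513 overlaps it on the opposite strand. Its promoter is shown for comparison with that of Gng8, as the next most regional member. The RefSeq window on GRCm38.p6 is chr1:153740103-153740402, plus strand, and capitals mark 2 overlapping GC boxes.
Rgs16: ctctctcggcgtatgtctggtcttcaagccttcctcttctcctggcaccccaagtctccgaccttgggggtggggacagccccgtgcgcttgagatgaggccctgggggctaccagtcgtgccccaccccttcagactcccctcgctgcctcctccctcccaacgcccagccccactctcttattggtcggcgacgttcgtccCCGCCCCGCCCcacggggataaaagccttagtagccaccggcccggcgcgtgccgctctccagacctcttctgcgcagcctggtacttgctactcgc
The share of G and C was 66% here and 58% in the Gng8 window.

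Rgs3 and Rgs8 followed Rgs16 into the thalamus. Rgs3, a longer RGS protein acting on Gi and Gq, held 124 CPM (114 to 135, 540 UMIs) and 101 CPM (94.6 to 107, 1022 UMIs) there, at log2 ratios over other spots of 1.88 and 1.40. White matter came next at 80.5 and 62.0 CPM, beyond counting error in both sections. The r of Rgs3 with Rgs16 across regions was 0.82 and 0.84. Rgs8, a neuronal RGS protein of the same R4 family, held 78.4 CPM (70.3 to 87.2, 341 UMIs) and 113 CPM (107 to 120, 1149 UMIs) in thalamus, at 1.13 and 1.36. In the trained section the ratio fell to 0.94 on the right side, and the lead over cluster 14 lay within counting error (1.25-fold, 0.977 to 1.63). In thalamus Rgs8 was lower in the trained section by a log2 ratio of -0.53 (-0.71 to -0.35), and in GABAergic nuclei by -1.03 (-1.50 to -0.60). The GABAergic markers of those nuclei stood at 6747 and 3083 CPM, over 319 and 156 spots, and their part was not tested. Rgs8 and Rgs16 are neighbours, 40025 bases apart on chromosome 1 and on the same strand, and their r across regions was 0.42 and 0.54.

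Rgs4, an RGS protein that damps Gq and Gi signals of muscarinic and metabotropic glutamate receptors, was cortical and thalamic. Upper layers of neocortex held 368 CPM (348 to 389, 1224 UMIs) and 341 CPM (326 to 357, 1847 UMIs), at log2 ratios over other spots of 1.17 and 1.30. Thalamus held 305 and 247 CPM, cluster 3 held 297 and 248 CPM, and white matter was lowest at 51.9 and 65.7 CPM. The lead of upper neocortex exceeded counting error in both sections. Striatal Rgs4 was 251 and 119 CPM, a log2 ratio of the sections of 1.06 (0.73 to 1.43). Rgs4 lies on chromosome 1 from 169741477 to 169747642 on the minus strand with 5 exons. Its promoter is shown because it holds a TATA box, unlike those of Gng8 and Rgs16. The RefSeq window on GRCm38.p6 is chr1:169747593-169747892, minus strand, with TATAAA in capitals.
Rgs4: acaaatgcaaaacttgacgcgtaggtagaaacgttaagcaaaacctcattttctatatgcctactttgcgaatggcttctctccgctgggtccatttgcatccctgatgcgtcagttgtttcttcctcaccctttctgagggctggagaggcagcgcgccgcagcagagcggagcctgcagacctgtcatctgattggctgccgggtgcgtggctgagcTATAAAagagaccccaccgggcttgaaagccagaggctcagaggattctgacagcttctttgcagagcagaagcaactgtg
The share of G and C in this window was 53%.

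**Figure D4:**
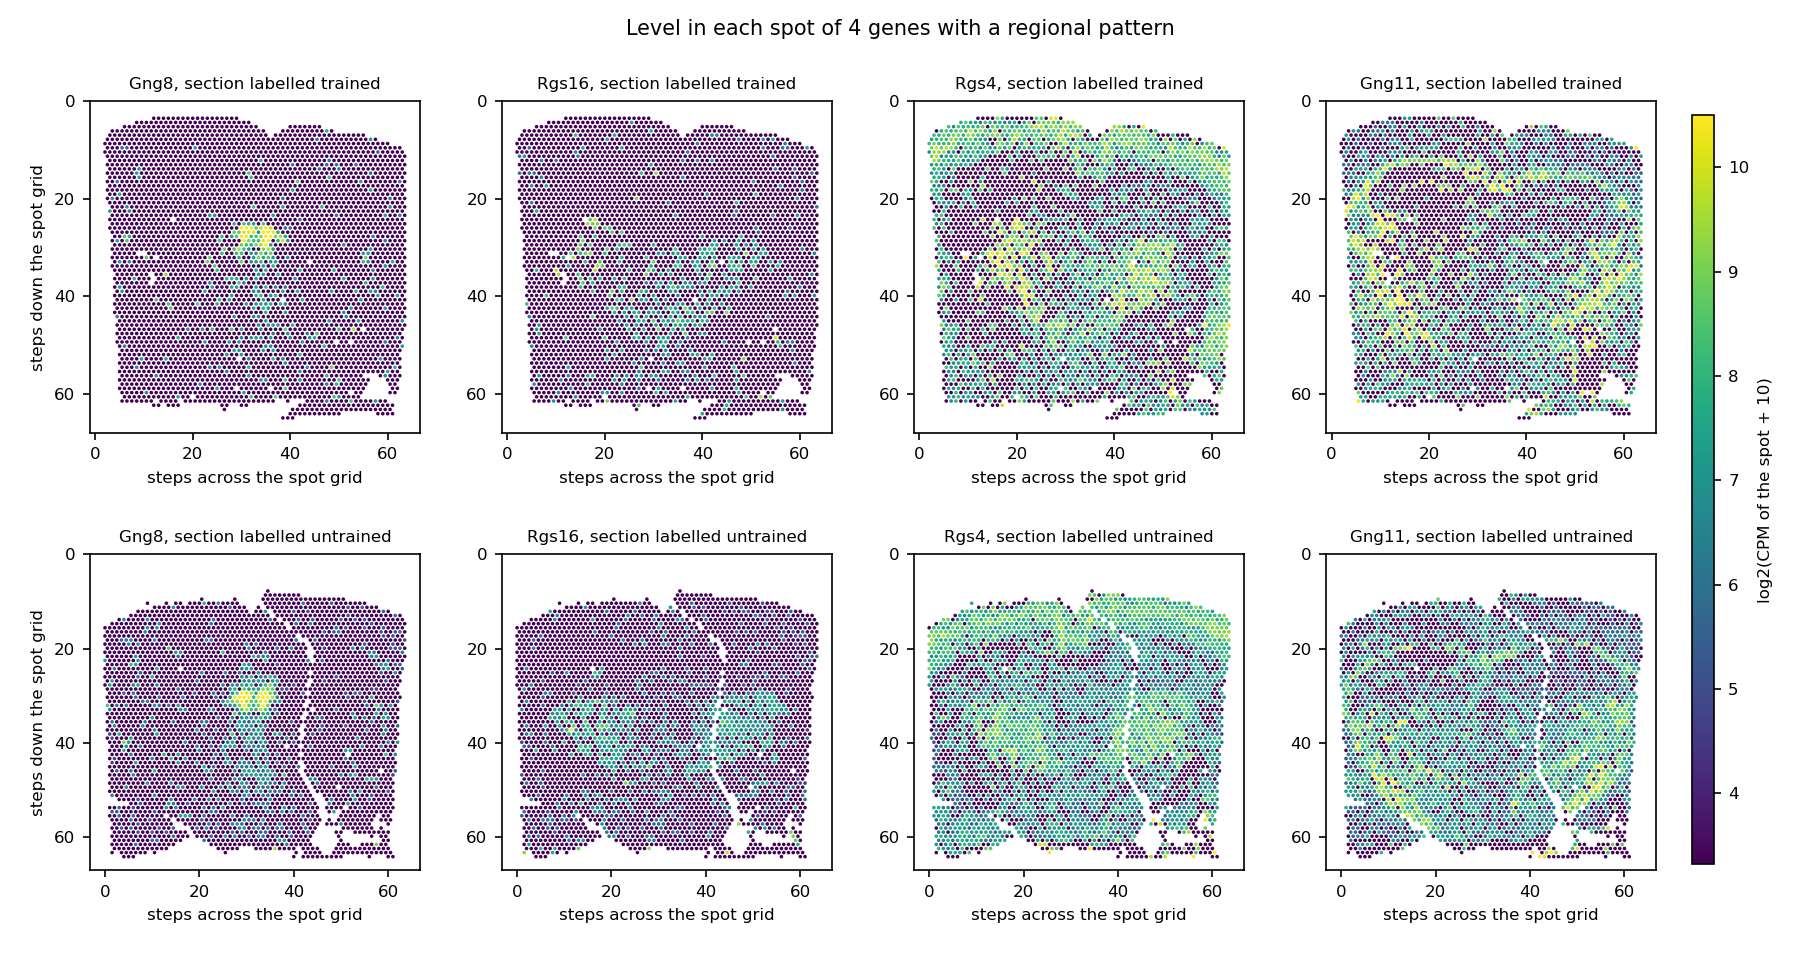
Maps of both sections with each spot coloured by the log2 level of Gng8, Rgs16, Rgs4 and Gng11 (CPM of that spot with 10 added), with axes in steps of the spot grid. Gng8 forms a small paired patch, Rgs16 and Rgs4 cover the thalamus with Rgs4 also in cortex, and Gng11 follows curved bands of white matter.

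Rgs5 lies 45663 bases from Rgs4 on the opposite strand and had another pattern. Rgs5, a marker of pericytes, held 166 CPM (143 to 192, 183 UMIs) and 117 CPM (103 to 132, 267 UMIs) in meninges and large vessels, at log2 ratios over other spots of 1.14 and 1.15. Cluster 11 followed at 160 and 89.8 CPM, within counting error of meninges in both sections. The ratio in the trained section fell under 2-fold with equal weight for each spot (0.84), on the left side (0.90) and after thinning each spot to 1000 UMIs (0.64). Within the meninges, cluster 20, led by the smooth muscle genes Acta2, Myh11 and Tagln, held 228 and 139 CPM. Across regions Rgs5 followed the endothelial list with an r of 0.86 and 0.93 and the pericyte and smooth muscle list with 0.86 and 0.82. The astrocyte list, at 0.75 and 0.82, and the microglial list, at 0.77 and 0.75, came close, so the match was not particular to vascular markers. That pericyte list summed to 641 and 834 CPM in meninges, against 28.7 to 132 CPM and 65.9 to 180 CPM elsewhere. Rgs5 and Rgs4 had an r of 0.03 and 0.15.

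Rgs6 and Rgs10 marked the habenula and the hypothalamus. Rgs6, of the R7 family that binds Gnb5, held 103 CPM (74.9 to 139, 43 UMIs) and 73.0 CPM (60.1 to 87.9, 112 UMIs) in the habenula, at log2 ratios over other spots of 2.18 and 1.96. GABAergic nuclei were also past 2-fold, at 60.5 and 42.7 CPM with log2 ratios of 1.46 and 1.12. Rgs10, a small RGS protein known from microglia and neurons, held 204 CPM (191 to 218, 892 UMIs) and 185 CPM (175 to 195, 1382 UMIs) in the hypothalamus, at 1.11 and 1.28. Thalamus was lowest at 55.9 and 54.2 CPM. Hypothalamic markers stood at 4701 and 1087 CPM in the hypothalamus, and their part in the levels of Rgs10, Gng4 and Adcy7 there was not tested. The ratio of Rgs10 in the trained section fell just under 2-fold at both other clusterings, to 0.97 and 0.98. Rgs10 followed the microglial list only weakly, with an r of 0.46 and 0.28. Rgs7, of the R7 family too, led in upper neocortex at 102 and 85.2 CPM without reaching 2-fold in both sections, and was low in the habenula at 26.5 and 18.9 CPM.

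The other 16 tested members were Gnai1, Gnai3, Gnaq, Gna11, Gna13, Gnaz, Gnb4, Gnb5, Gng5, Gngt2, Rgs7, Rgs11, Rgs12, Rgs17, Rgs19 and Rgs20. At the main settings they had no region at least 2-fold above all other spots in both sections. Their highest log2 ratio of any region over other spots ran from 0.39 for Gna11 to 1.74 for Gnb4 in the trained section and from 0.37 for Gna11 to 1.31 for Gngt2 in the untrained section.

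Members known to work together did not all share a pattern. Gnb5 followed Rgs7 with an r across the 14 regions of 0.52 and 0.67 and Rgs11 with 0.51 and 0.77, but Rgs6 with -0.05 and -0.09. Rgs7 and its membrane anchor Rgs7bp had 0.74 and 0.84. Gnal and Gng7 had 0.26 in the trained section and -0.29 in the untrained section. Gnaq, the alpha subunit that activates phospholipase C beta, followed Plcb1 with 0.62 and 0.74 and opposed Plcb4 with -0.58 and -0.74. Gng3 and Gnb1 had 0.71 and 0.67, and Gnao1 and Gnb1 had 0.51 and 0.15. The median over all 703 pairs of tested members was 0.0005 and -0.007, and all pairs share the 14 regions, their depth and their library.

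Among the likest pairs was Gna12 with Gng11, at 0.92 and 0.95, both white matter genes. Gng5 with Gnai2 had 0.86 and 0.94. Among the most opposed were Gng5 with Gnaq, at -0.81 and -0.78, Gng7 with Gng3, at -0.81 and -0.77, Gnb1 with Gng7, at -0.84 and -0.76, and Gnb2 with Gng8, at -0.77 and -0.83. Gng13 and Rgs11, 483544 bases apart on chromosome 17, had 0.78 and 0.57.

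Enzymes and partners of the pathway were set beside the members. Of 36 further genes (adenylyl cyclases, phospholipase C beta, G protein gated potassium channels, receptor kinases and arrestins, chaperones and exchange factors, and anchors of R7 proteins), 25 passed the minimum, of which 15 had the same leading region, beside 48.9% of all genes tested, and 7 a shared 2-fold region, beside 20.1%. Adenylyl cyclases, the cAMP-forming effectors of Gs, Golf and Gi, gave 4 of these. Adcy1 held 963 and 1015 CPM in the DG, at log2 ratios of 2.198 and 2.19. Adcy5, the striatal cyclase downstream of Golf, held 260 and 92.9 CPM in striatum, at 2.64 and 1.08. Adcy8 held 25.5 and 22.3 CPM in thalamus, at 1.36 and 1.18, and Adcy7 held 38.7 and 16.7 CPM in the hypothalamus, at 2.46 and 2.33. Plcb4 marked thalamus at 322 and 221 CPM (2.30 and 2.201) and Plcb1 upper neocortex at 214 and 145 CPM (1.005 and 1.12). Gpsm2 marked the DG at 35.3 and 18.5 CPM (1.78 and 1.19). The same leading region was found for 0 of 2 tested potassium channels and for 1 of 6 tested receptor kinases and arrestins. The median r between sections was 0.764, beside 0.88 for the members and 0.706 for all genes.

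The 4 genes that the rule left out had the same leading region in both sections. Rgs9, the striatal RGS protein, held 203 and 41.8 CPM in striatum, at log2 ratios of 4.58 and 2.53. Rgs14, known from CA2, held 211 and 128 CPM in cluster 14, at 2.64 and 2.48.

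The level of members in the whole section was compared last between the labels. The log2 ratio of trained over untrained CPM was past 2-fold in either direction for 0 of 38 members, beside 2.09% of all genes tested. It ranged from -0.41 (-0.51 to -0.32) for Rgs8 to 0.58 (0.50 to 0.66) for Gnai1, with a median of 0.11, against 0.09 over all genes. Intervals lay above 0 for 19 members, beside 46.4% of all genes tested, and below 0 for 14, beside 26.3%. Most genes thus had an interval on one side of 0. Averaging the log2 ratios of the 14 regions with equal weight moved the median to 0.02, against 0.06 over all genes, and the range to -0.63 for Rgs16 and 0.45 for Rgs5. The sign turned for Gng4 (0.10 to -0.25), Gng12 (0.08 to -0.14) and Rgs20 (0.36 to -0.016). Gng7 moved from 0.52 to 0.23 by this weighting, under which the larger striatum of the trained section counts as 1 region.

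Within striatum 6 members had a ratio past 2-fold between sections, beside 14.4% of all genes tested, so members did so about as often as other genes. Gnal, Gng7 and Rgs4 were higher and Gng2 and Rgs3 lower in the trained section, beside the shifts of the striatal, choroid plexus and meningeal markers given above, whose part was not tested. Rgs16 was the remaining one, at 17 and 10 UMIs and a log2 ratio of -1.14 (-2.32 to 0.18), an interval that includes 0. Within the habenula 4 members were past 2-fold, beside 12.9% of all genes tested. In the habenula Gna11 had 14 and 130 UMIs, a log2 ratio of -1.29 (-2.24 to -0.53), and Gnb4 had 23 and 40 UMIs, a log2 ratio of 1.10 (0.28 to 1.86). Rgs20 there had 1 and 23 UMIs, and Gngt2 had 5 and 9 UMIs, at 1.09 (-0.89 to 2.77). Beyond those of Rgs8 and Gng4 given above, other regions also held ratios past 2-fold whose intervals left out 0. In the DG these were Gngt2 at 1.60 (0.59 to 2.61) and Gng4 at -1.89 (-5.30 to -0.18). In cluster 3 they were Gng8 at -1.75 (-3.58 to -0.49) and Rgs16 at -1.03 (-2.19 to -0.09). Rgs16 in meninges stood at -1.32 (-2.52 to -0.39). Shares over all genes were not counted there. The lowest agreement of regional patterns was found for Gngt2 at an r of 0.21, Gna11 at 0.25, Rgs12 at 0.46 and Gnai3 at 0.49, and 26 members were above 0.8, beside 34.6% of all genes tested.

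**Figure D5:**
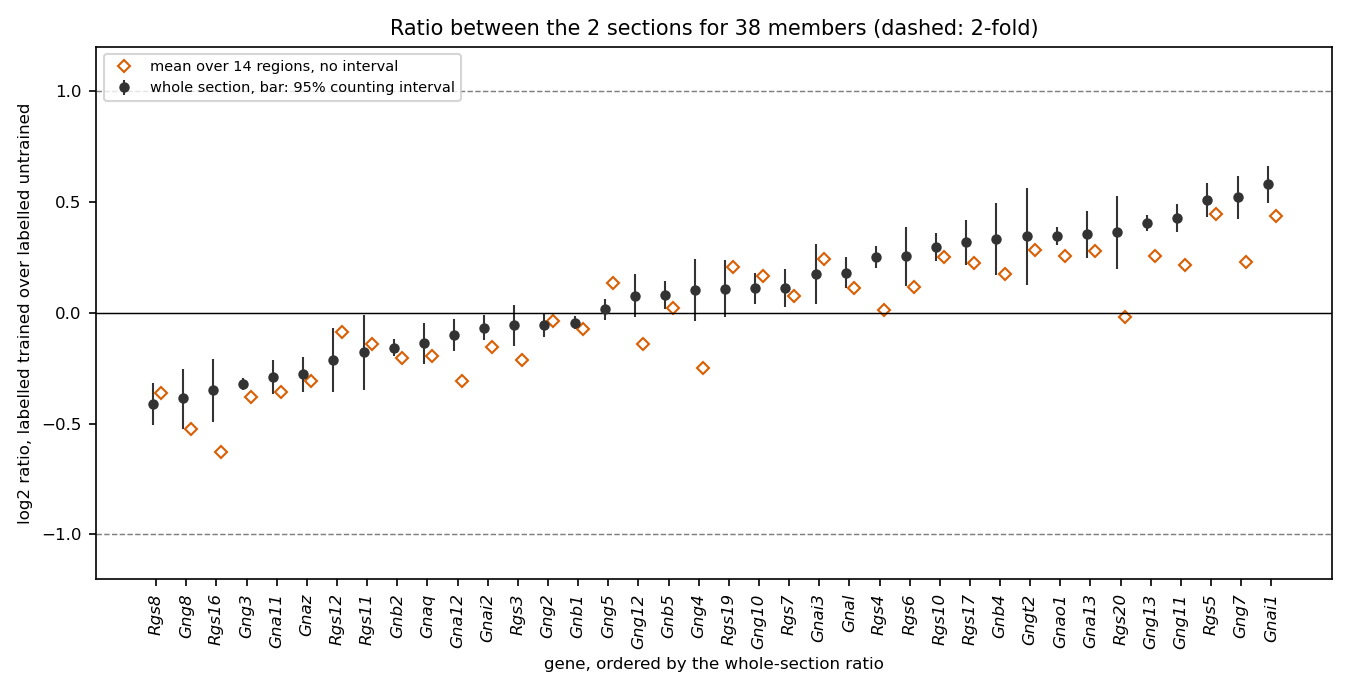
Log2 ratio of whole-section CPM, trained over untrained label, for each of the 38 tested members with its 95% counting interval, beside the mean of the ratios of the 14 regions. All values lie within 1 of 0, from -0.41 for Rgs8 to 0.58 for Gnai1 for the whole-section ratio.

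The authors also deposited Moran's I, a score of how far neighbouring spots resemble each other. Its median over tested members was 0.0826 and 0.111, against 0.0256 and 0.0388 over all genes tested. Gng8 had the highest value of the family at 0.399 and 0.431. Rgs4 had 0.31 and 0.35, Gng3 had 0.27 and 0.37, Gng11 had 0.21 and 0.28, and Rgs16 had 0.14 and 0.28. A shared 2-fold region and a high score did not always go together. Rgs5, at 0.0415 and 0.0371, and Gng12, at 0.0599 and 0.0417, lay below the members' medians, and Gng13, with no such region, had 0.229 and 0.247. The score is not corrected for depth, which was greater in the untrained section.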

How the data were processed

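RNA was captured on 10x Visium arrays from 1 section of each of 2 brains. The authors trimmed reads with TrimGalore and made UMI counts per gene and spot with Space Ranger 2.0.0 on the 10x mm10 reference. The deposited counts are raw, for spots under tissue. Moran's I, a score, was deposited by the authors in a table per section. Image files were not used, and 3448 spot barcodes occurred in both sections, which use 1 set of array barcodes.

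Spots with at least 500 UMIs (3958 and 3624) were clustered jointly in scanpy 1.11.5 with leidenalg 0.10.2. From the 3000 most variable genes of each section the shared ones were kept, and members, pathway genes, immediate early, mitochondrial, ribosomal and haemoglobin genes were removed, which left 936. Settings were 30 components, 15 neighbours, resolution 1.5 and seed 7. Clusters took the name of the marker list with a mean z score above 1, at least 3 markers at 5 CPM or more and most markers among the 10 leading genes. Clusters of 1 name were merged.

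Counts were pooled per region and scaled to CPM. Log2 ratios used 0.5 UMI as pseudocount. Intervals are exact Poisson for a CPM and exact conditional binomial for a ratio. With 1 section per group no test was possible, and doublet calling does not apply to spots. Named with full values were members with a shared 2-fold region, those past 2-fold in the whole-section ratio (0 members) and the 2 with most UMIs in each class. The members, lists and markers were chosen with earlier results of these data known. The scripts were tested on simulated data. Exons of other genes on the opposite strand overlap Gna12, Gna13, Gnal, Gnao1, Gnb5, Gng2, Gng3, Gng12, Gng13, Gngt2, Rgs6, Rgs8, Rgs11, Rgs12, Rgs16 and Rgs20, and on the same strand Gnb2 and Gng10 (GRCm38), and use of strand in counting is not given in the sources used here.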

Additional observations from a re-analysis of the deposited data

How the results depend on the processing

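Alternatives were the UMI minimum, the scaling, the clustering resolution, equal weight for each spot, 1000 UMIs per spot, single sides of the sections and the fold threshold. For the 16 members with a shared 2-fold region, the ratio of that region over other spots did not turn its direction. Ratios of other regions and members were not followed singly, and ratios between the sections within a region were not rerun. Some other members gained a shared 2-fold region. Gnb4 did so at resolutions 1.0 and 2.0, after thinning to 1000 UMIs and on the left side. Gng5 did so at both resolutions, on both sides and with regions of at least 20 spots. Rgs11 did so after thinning and with equal weight, and Rgs20 on the left side. Between 20 and 25 of 38 members had a whole-section ratio above 0, or 16 of the 27 members with at least 1000 UMIs. The median log2 ratio over all genes was also above 0 in each of these settings, from 0.030 to 0.117. The count of members with the same leading region fell to 13 (all genes 23.9%) and the median r between sections to 0.489 (all genes 0.266) when each spot was thinned to 1000 UMIs, and 13 had a shared 2-fold region (all genes 32.0%). A shared region was found for 26 members at 1.5-fold (all genes 44.2%) and for 5 at 3-fold (all genes 8.04%). Other settings gave 19 (of 27 members with at least 1000 UMIs) to 27 members with the same leading region, beside 37.9% to 56.7% of all genes. A shared 2-fold region was held by 12 (of those 27) to 17 members, beside 17.1% to 25.8% of all genes. The median r was 0.725 to 0.903, against 0.517 to 0.808 over all genes. The whole-section count stayed at 0 under every alternative run. Of the values of these 16 members in their shared region, 203 kept their side of 2-fold and 17 fell under it. In the trained section these were Gng10 in CA1 (resolution 1.0, thinning, equal weight and left side, 0.63 to 0.96), Rgs5 in meninges (thinning, equal weight and left side, 0.64 to 0.90), Rgs10 in hypothalamus (resolutions 1.0 and 2.0, 0.97 and 0.98), Rgs8 in thalamus (right side, 0.94) and Gng7 in cluster 11 (right side, 0.50). In the untrained section they were Gng10 (resolution 1.0 and equal weight, 0.97 and 0.94), Rgs10 (thinning, 0.98), Gng7 in cluster 11 (thinning and right side, 0.59 and 0.21) and Gng2 in the DG (thinning, 0.50). Numbered clusters were not matched across resolutions, so Gng7 in cluster 11 has no value there. Chosen after seeing the data, leaving out the striatum gave 26 and 16 members and a median r of 0.903, leaving out meninges 27, 15 and 0.875, and regions of at least 20 spots 24, 17 and 0.857. Over all genes these settings gave 51.2%, 19.8% and 0.738, then 49.2%, 18.8% and 0.713, then 48.0%, 25.1% and 0.704. No paired analysis was possible because each group has 1 section. Depth limits low members: 11 had under 1000 UMIs in a section.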

Other observations

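Gng5, a widely expressed gamma subunit, was highest in regions too small for the comparison. In cluster 21, named choroid plexus from its markers and led by Ttr, F5 and Kcne2, Gng5 held 695 CPM (611 to 787, 248 UMIs) over 28 spots of the trained section and 572 CPM (547 to 597, 2016 UMIs) over 86 spots of the untrained section. In cluster 24, led by the cilium genes Ccdc153, Tmem212 and Ak7, it held 628 CPM (524 to 746, 129 UMIs) over 28 spots and 584 CPM (535 to 637, 522 UMIs) over 57 spots. The highest values of Gng5 among the 14 regions compared were 310 and 272 CPM, below the intervals given here. Gnai2 held 229 and 265 CPM in cluster 24. These values were chosen after they were seen, and a near-identical transcript leaves the counts of Gng5 uncertain.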
